A study of Mus musculus with 2 samples.

Results

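The binding of STAT5 and STAT3 was examined around the genes of 3 transcriptional repressors, Bcl6, Prdm1 and Bach2, in mouse T helper 17 (Th17) cells. The genes were taken as fixed windows of the mm9 genome: chr16:23940000-24300000 for Bcl6, chr10:44080000-44380000 for Prdm1 and chr4:32300000-32700000 for Bach2. Chromatin immunoprecipitation sequencing (ChIP-seq), which reads the DNA fixed to a protein that an antibody pulls down, gave 1 STAT5 library and 1 STAT3 library. Places where reads of either library piled up were called over the whole genome and merged into sites, and 124 of 86149 sites had their centre in these windows: 47 at Bcl6, 20 at Prdm1 and 57 at Bach2. The STAT5 library came from cells given IL-2 (200 IU/ml) for 30 minutes and was made with antibodies to STAT5A and STAT5B mixed. The STAT3 library came from cells given IL-6 (40 ng/ml) for 30 minutes and was made with 1 antibody to STAT3. Both used wild-type C57BL/6J CD4 T cells, sorted as naive from spleen and lymph nodes and then cultured for 3 days on CD3 and CD28 antibodies with TGF-beta at 2 ng/ml, IL-6 at 20 ng/ml and an antibody to IL-4. The labels also list an antibody to IL-2 in the culture, with its amount in IU/ml, and they give neither the sex, age nor number of the mice. Antibody and cytokine differed together, no input or control library was analysed here, and ChIP-seq reads give no level of the markers that define Th17 cells.

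STAT5 and STAT3 are transcription factors that cytokine receptors activate through JAK kinases, STAT5 mainly downstream of IL-2 and STAT3 mainly downstream of IL-6 and its relatives. Both recognise the palindrome TTCNNNGAA, in which N is any base. Bcl6 is the zinc finger repressor that defines follicular helper T cells, and Prdm1 encodes Blimp-1, a repressor found in effector T cells and plasma cells. Bcl6 and Blimp-1 repress each other's genes. Bach2, a repressor with a leucine zipper, restrains effector differentiation of T cells and represses Prdm1 in B cells.

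The sequence before the starts of Bcl6 is shown because the pair of sites with most STAT5 reads in the window lay at the gene's 5′ end and inside the gene on mm9. RefSeq (GRCm38.p6) lists 2 starts for Bcl6, both on the minus strand and 7569 bases apart. The 250 bases before each of them are chr16:23988853-23989102 for the upstream start and chr16:23981284-23981533 for the downstream start, on GRCm38.p6. They are printed 5′ to 3′ along the gene, with each match to TTCNNNGAA in capitals.
Bcl6 upstream start: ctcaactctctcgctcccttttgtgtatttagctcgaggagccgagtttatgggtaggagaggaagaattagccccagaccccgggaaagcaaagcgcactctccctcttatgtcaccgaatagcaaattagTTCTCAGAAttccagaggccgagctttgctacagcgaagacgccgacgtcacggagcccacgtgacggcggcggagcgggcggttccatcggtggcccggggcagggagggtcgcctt
Bcl6 downstream start: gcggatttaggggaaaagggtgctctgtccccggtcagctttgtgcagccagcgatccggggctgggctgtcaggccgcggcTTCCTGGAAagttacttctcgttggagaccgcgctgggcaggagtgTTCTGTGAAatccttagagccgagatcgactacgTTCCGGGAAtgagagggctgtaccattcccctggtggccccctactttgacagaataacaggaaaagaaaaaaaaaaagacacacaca
The downstream start had 3 matches, TTCCTGGAA, TTCTGTGAA and TTCCGGGAA, which began 168, 122 and 88 bases before it. The upstream start had 1, TTCTCAGAA, which began 118 bases before it. Of 32851 RefSeq promoter sequences searched in the same 250 bases, 2306 (7.02%) held at least 1 match and 9 (0.0274%) held 3, the most found in any. The motif is its own reverse complement, so both strands were searched at once. The Bach2 start in the table had 1 match, TTCGTTGAA, and the Prdm1 start had none, which says only that these letters are not in that window. The reads are placed on mm9, and no position was carried between the builds. On mm9 the centres of the 2 sites of the window with most STAT5 reads lay 7550 bases apart. Whether the printed sequences lie under them was not tested.

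All 3 windows were dense in sites of both antibodies. The Bach2 window held 51 STAT5 and 34 STAT3 regions, the Bcl6 window 34 and 32, and the Prdm1 window 16 and 12. Per Mb this was 128 STAT5 and 85.0 STAT3 regions at Bach2, 94.4 and 88.9 at Bcl6, and 53.3 and 40.0 at Prdm1, against 29.9 STAT5 and 24.1 STAT3 regions per Mb over the whole genome. These numbers depend on the threshold: at a minimum of 8-fold over the local mean the Bach2 window kept 19 STAT5 and 9 STAT3 regions, the Bcl6 window 15 and 6, and the Prdm1 window 6 and 4. Reads outside the sites differed between the windows too. Tiles of 1 kb at least 500 bp from any region held 28.1 STAT5 and 33.3 STAT3 reads per kb at Bach2, 13.1 and 16.1 at Bcl6, and 6.53 and 8.72 at Prdm1, where all reads of the genome, sites included, averaged 7.61 and 8.81 per kb. Their part in the number of regions was not tested.

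The libraries held 17963766 STAT5 and 20784388 STAT3 nuclear reads, and levels are given as reads per 1000000 of these (RPM). There was 1 library per antibody, so no difference between them has a replicate check and no p-value is given. Intervals are exact 95% intervals of the ratio of RPM, STAT5 over STAT3, and cover counting error only. Reads were counted in 400 bp around each site's centre. Other summits of a wide region can thus lie outside the reads counted. A site was called higher with 1 antibody when this interval lay wholly beyond 2-fold. The deposited reads number at most 1 per position and strand, so 400 bp can hold at most 800 and 200 bp at most 400, which compresses the ratios of the tallest sites. The intervals do not cover this loss of reads and are too narrow at the tallest sites.

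The STAT5 library was the higher one at 34 of the 124 sites and the STAT3 library at 5, against 25.1% and 2.41% of all 86149 sites of the genome. By gene, 8 of 47 Bcl6 sites (17.0%), 9 of 20 Prdm1 sites (45.0%) and 17 of 57 Bach2 sites (29.8%) were higher with STAT5. Taller sites are called more readily, and the genome-wide shares among sites with 100 or more reads of either antibody were 42.2% for STAT5 and 4.52% for STAT3. Of such tall sites, 6 of 21 at Bcl6, 7 of 10 at Prdm1 and 11 of 38 at Bach2 were higher with STAT5. With STAT3, 0, 1 and 2 of them were higher, or 3 of 69 over the 3 windows, which is close to the genome-wide 4.52%. The STAT5 share at Bcl6 lay below its background on either count and that at Prdm1 above it. The STAT5 share at Bach2 lay above it over all sites and below it over the tall ones. These shares rest on few sites and were not tested. The libraries were also scaled by the reads in 10 kb bins without a region, which divides every ratio by 0.723. Then 15 of 47 Bcl6, 10 of 20 Prdm1 and 24 of 57 Bach2 sites were higher with STAT5 (32.5% of all sites genome-wide). With STAT3, 1, 0 and 0 were higher (0.786%). With this scaling the share at Bcl6 was close to the genome-wide share, so its lower share depends on the scaling. Regions were called with both antibodies at 19 Bcl6, 8 Prdm1 and 28 Bach2 sites (47.7% of all sites genome-wide), with STAT5 only at 15, 8 and 23 (34.1%), and with STAT3 only at 13, 4 and 6 (18.2%). A region called with 1 antibody only need not be empty in the other library, because the local mean that a region must exceed includes its neighbours.

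**Figure D1:**
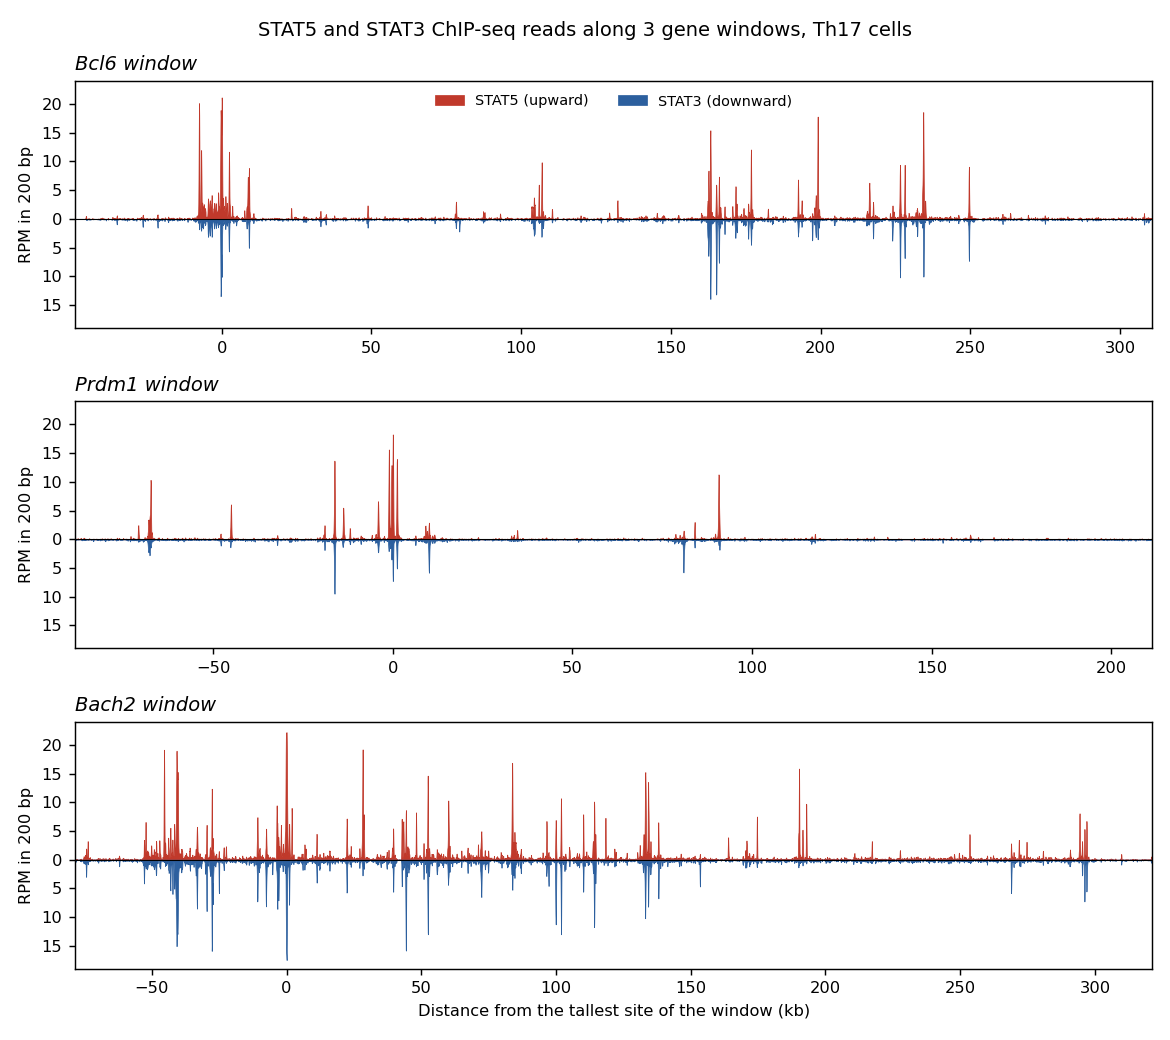
STAT5 reads (upward, red) and STAT3 reads (downward, blue) in 200 bp windows moved by 50 bp, in RPM, along the Bcl6, Prdm1 and Bach2 windows. The x axis is the distance in kb from the tallest site of each window. STAT5 peaked at 21.2, 18.3 and 22.2 RPM and STAT3 at 14.0, 9.48 and 17.5 RPM.

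At Bcl6 the STAT5 library was highest at the gene itself. The gene lies at about 23965000 to 23989000 and is transcribed toward lower coordinates, so its 5′ end is the higher one. The tallest site of the window, chr16:23988551-23989200, lay at this 5′ end, with 605 STAT5 and 277 STAT3 reads, a ratio of 2.53 (2.19 to 2.92). Counted in 200 bp the ratio was 2.09 (1.76 to 2.49), which is not beyond 2-fold. The site ranked 284 of the 86149 sites for STAT5 reads and 1538 for STAT3 reads. The site had a pair of summits 350 bp apart. The 400 bp counted lay around the summit at 23989051 and left out the summit at 23988701, where STAT3 was taller. The reads, ratios and ranks above therefore do not include the place with most STAT3 in this site. In 200 bp windows the summit at 23989051 had 21.2 RPM with STAT5 and 10.1 RPM with STAT3, and that at 23988701 had 18.9 RPM with STAT5 and 13.5 RPM with STAT3. STAT5 was thus higher at both summits, and the taller summit was not the same in both libraries.

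The next sites lay inside the gene. The region chr16:23981251-23981700, centred 7.50 kb inside the 5′ end, had 520 STAT5 reads but 53 STAT3 reads, a ratio of 11.4 (8.55 to 15.4). Its STAT5 count ranked 764 of all sites and its STAT3 count 28290. A neighbouring region, chr16:23982051-23982300, had 259 STAT5 and 59 STAT3 reads, a ratio of 5.08 (3.82 to 6.86). No STAT3 region was called at either, although the STAT3 counts exceeded those 5 kb to the sides, which averaged 26.5 and 24.5 reads. The only other site inside the gene, centred on 23967651, had 16 STAT5 and 35 STAT3 reads. Summed over the 3 sites centred within the gene's extent, the ratio was 6.26 (5.24 to 7.51). This sum leaves out the tallest site, whose centre lay 0.051 kb past the approximate 5′ end. With the tallest site included, the 6 sites from 23940000 to 23990000 had a summed ratio of 3.45 (3.11 to 3.84).

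Away from the gene the summed ratio of the Bcl6 sites was closer to even. Over the 7 sites within the gene or 10 kb of it, the summed ratio was 3.01 (2.76 to 3.28), against 1.41 (1.34 to 1.47) over the 40 sites farther away. Single sites were not more even there. Their median ratio was 2.18 (quartiles 1.19 and 3.80) near the gene and 1.37 (0.949 and 2.18) farther away, so the quartile ranges overlap. The ratios ran from 0.529 to 11.4 near the gene and from 0.103 to 15.4 farther away. Just beyond the 5′ end, chr16:23991301-23991600 had 275 STAT5 and 146 STAT3 reads and chr16:23997601-23998350 had 190 and 122, and neither was called. The reads of the latter are those around its highest summit only. Elsewhere in this region, 8700 bp from the centre of the window's tallest site, 200 bp held 7.29 RPM of STAT5 and 0.433 RPM of STAT3. The largest group of sites lay upstream, in the 100 kb from 24140000 to 24240000, which held 20 of the 47 sites. Its first 50 kb had a summed ratio of 1.31 (1.23 to 1.40) and its second 50 kb 1.42 (1.32 to 1.54), whereas the 50 kb that hold the gene, from 23940000 to 23990000, had 3.45 (3.11 to 3.84). RefSeq lists no protein-coding gene on GRCm38.p6 between Bcl6 and Lpp, the next one upstream, only noncoding RNA genes and pseudogenes.

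The upstream group held the sites with the most STAT3 reads of the Bcl6 window. The region chr16:24152051-24152450 had 377 STAT5 and 407 STAT3 reads, a ratio of 1.07 (0.929 to 1.24), and ranked 381 of all sites for STAT3. About 2 kb on, chr16:24154051-24154400 had 160 STAT5 and 372 STAT3 reads, a ratio of 0.498 (0.411 to 0.601), which did not meet the call. Other sites of the group favoured STAT5: chr16:24187851-24188300 had 388 STAT5 and 86 STAT3 reads, a ratio of 5.22 (4.12 to 6.67). The region chr16:24205101-24205550 had 167 STAT5 and 29 STAT3 reads, a ratio of 6.66 (4.47 to 10.3). The region chr16:24223101-24223650 had 476 STAT5 and 264 STAT3 reads, a ratio of 2.09 (1.79 to 2.43), and was not called. Corrected for positions already taken, its ratio was 2.61 (2.29 to 2.99), beyond 2-fold toward STAT5. The same correction gave 0.413 (0.346 to 0.491) at chr16:24154051-24154400, beyond 2-fold toward STAT3, and 1.04 (0.919 to 1.17) at chr16:24152051-24152450.

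The largest Bcl6 ratio in either direction was at a low site. Upstream of the gene, chr16:24012051-24012450 had 40 STAT5 and 3 STAT3 reads, a ratio of 15.4 (4.91 to 78.0). At the other extreme, chr16:24068201-24068550 had 5 STAT5 and 56 STAT3 reads, a ratio of 0.103 (0.0323 to 0.256). The 37 sites that were not called had 13 to 476 STAT5 reads (median 52) and 5 to 407 STAT3 reads (median 42).

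Prdm1 was the window with the fewest sites and the largest share higher with STAT5. Its tallest site, chr10:44168351-44168700, had 440 STAT5 and 176 STAT3 reads, a ratio of 2.89 (2.42 to 3.46). Within 1.5 kb of it the STAT5 library had 4 summits of at least 5 RPM in 200 bp, at 12.9 to 18.3 RPM, and the STAT3 library had 2, at 7.27 and 5.10 RPM. The outer STAT5 summits belong to the sites chr10:44167301-44167550, with 355 STAT5 and 65 STAT3 reads (ratio 6.32, 4.84 to 8.36), and chr10:44169501-44169750, with 325 and 133 reads (2.83, 2.30 to 3.49). At the summit 350 bp below the tallest site's centre, 12.9 RPM of STAT5 met 3.51 RPM of STAT3, and no region was called there. At the site with 325 STAT5 and 133 STAT3 reads only a STAT3 region was called, so the lists of regions and the read counts can point opposite ways in such a cluster. Over the 50 kb from 44130000 to 44180000, which hold this cluster, the summed ratio was 2.24 (2.07 to 2.44).

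Prdm1 sites outside this cluster were also called higher with STAT5. The region chr10:44258951-44259600 had 283 STAT5 and 32 STAT3 reads, a ratio of 10.2 (7.09 to 15.3), the highest of the window. Toward lower coordinates, chr10:44100351-44101300 had 233 STAT5 and 48 STAT3 reads (5.62, 4.10 to 7.83) and chr10:44123151-44123700 had 146 and 30 (5.63, 3.78 to 8.64). Lower sites called higher with STAT5 included chr10:44154551-44154900 (130 and 37 reads, 4.07) and chr10:44097551-44097800 (54 and 14 reads, 4.46). The site with most STAT3 reads, chr10:44152001-44152500, was close to even, with 318 STAT5 and 259 STAT3 reads and a ratio of 1.42 (1.20 to 1.68). The last 50 kb of the window, from 44330000, held no site. Protein-coding neighbours of Prdm1 in RefSeq are Atg5 and Prep, and which of the sites lie within Prdm1 was not determined without an mm9 annotation.

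**Figure D2:**
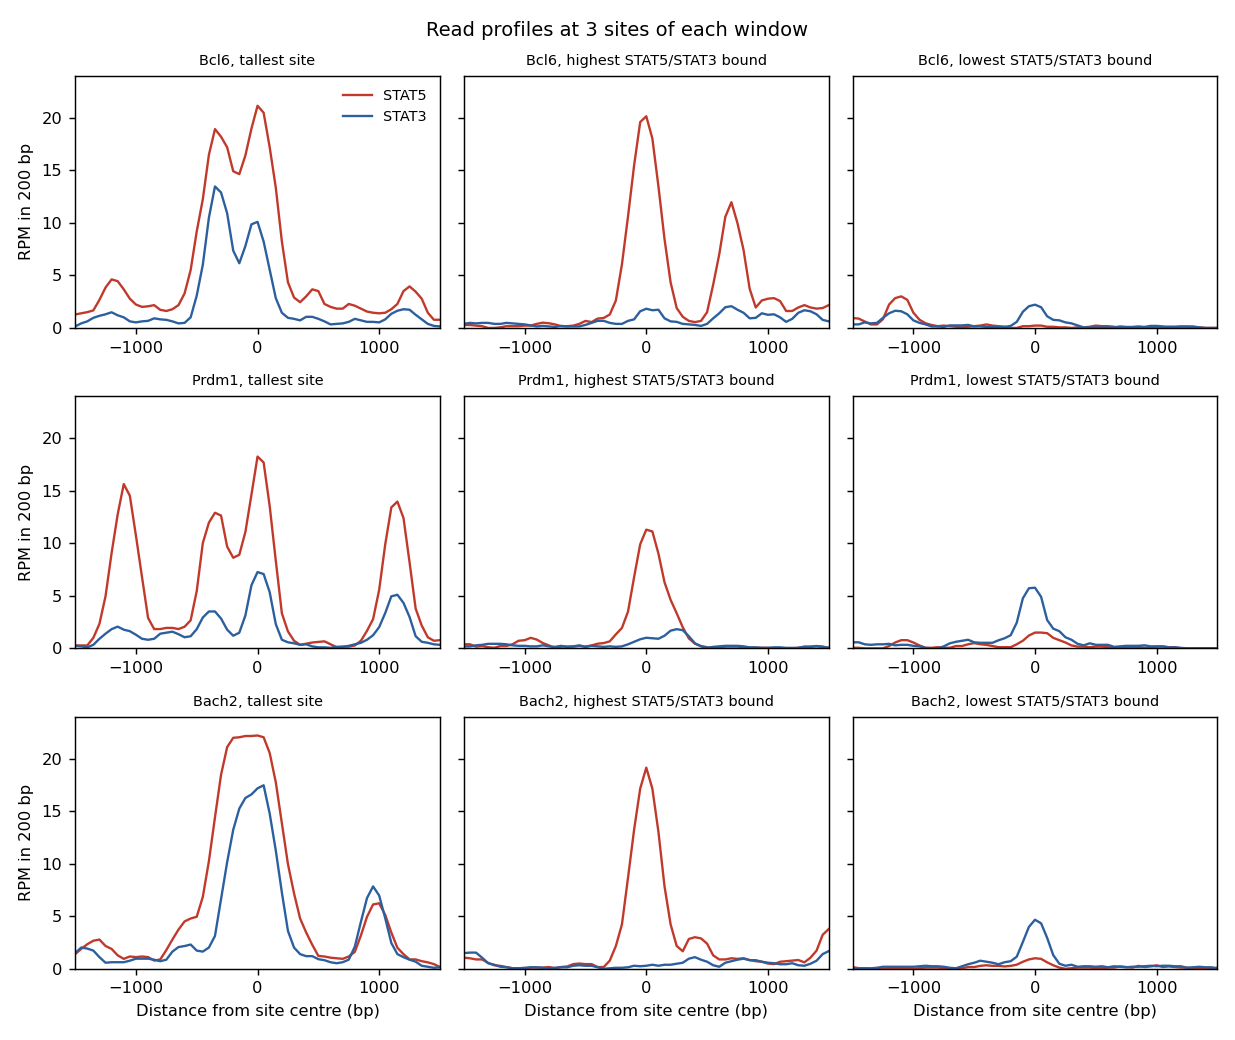
STAT5 (red) and STAT3 (blue) reads in 200 bp windows, in RPM, within 1500 bp of 3 sites of each window: the tallest site (left), the site higher with STAT5 whose interval lay farthest above 1 (middle) and the site higher with STAT3 whose interval lay farthest below 1 (right). All panels share 1 scale, and the flat top of STAT5 at the tallest Bach2 site is where 399 of 400 positions and strands had a read.

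Bach2 had the tallest sites of the 3 windows with both antibodies. The region chr4:32378201-32378800 had 766 STAT5 and 644 STAT3 reads, a ratio of 1.38 (1.24 to 1.53), and ranked 8 of all 86149 sites for STAT5 and 18 for STAT3. Its STAT5 reads filled 399 of the 400 positions and strands in 200 bp and its STAT3 reads 357, so the ratio is compressed. A correction for positions already taken gave 2.24 (2.09 to 2.39), which is beyond 2-fold. The region chr4:32337601-32338250 had 571 STAT5 and 539 STAT3 reads, a ratio of 1.23 (1.09 to 1.38), and ranked 424 for STAT5 and 85 for STAT3. The region chr4:32511451-32511900 had 490 STAT5 and 287 STAT3 reads, a ratio of 1.98 (1.70 to 2.29), and was not called either. With the same correction its ratio was 2.47 (2.17 to 2.81), also beyond 2-fold, and that at chr4:32337601-32338250 was 1.29 (1.18 to 1.42).

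Other Bach2 sites had many STAT5 and few STAT3 reads. The region chr4:32332901-32333300, about 5 kb from the site with 539 STAT3 reads, had 472 STAT5 and 12 STAT3 reads, a ratio of 45.5 (25.8 to 88.7). This ratio ranked 1304 of all sites, and the site 1188 for STAT5 reads. The region chr4:32406551-32407050 had 526 STAT5 and 70 STAT3 reads, a ratio of 8.69 (6.77 to 11.3), and chr4:32462051-32462500 had 463 and 158, a ratio of 3.39 (2.82 to 4.09). Of the 17 Bach2 sites higher with STAT5, 15 had no STAT3 region, against 5 of 8 at Bcl6 and 4 of 9 at Prdm1. Sites called in this way have relatively few STAT3 reads, and the same share over the whole genome was not counted. Whether these numbers are particular to Bach2 therefore cannot be told from them. Over the 17 Bach2 sites, STAT3 counts ran from 5 to 158 with a median of 21.

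The ratio differed along the Bach2 window. In the 50 kb from 32350000 the summed ratio was 1.01 (0.946 to 1.08), and from 32450000 it was 1.20 (1.13 to 1.29). In the 50 kb from 32550000 it was 7.92 (6.50 to 9.71), where 4 of 5 sites were higher with STAT5. These include chr4:32568551-32568950 with 334 STAT5 and 29 STAT3 reads (13.3, 9.11 to 20.2) and chr4:32571251-32571600 with 208 and 21 (11.5, 7.30 to 18.9). On the near side, chr4:32542201-32542650 had 88 and 5 reads (20.4, 8.40 to 64.3). Farther on, chr4:32672651-32673000 had 186 STAT5 and 9 STAT3 reads (23.9, 12.3 to 53.1). The next sites, within 3 kb of it and centred on 32674651 and 32675401, had ratios of 0.776 and 1.07. The protein-coding neighbours of Bach2 in RefSeq are Map3k7 on 1 side and Gja10 and Casp8ap2 on the other, and whether the end of the window reaches past Bach2 was not determined on mm9.

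Sites higher with STAT3 numbered 5 over the 3 windows and are named here after their values were seen. Besides the Bcl6 site with 5 STAT5 and 56 STAT3 reads they were chr16:24186101-24186400 with 20 STAT5 and 96 STAT3 reads (0.241, 0.141 to 0.393) and chr10:44249151-44249600 with 39 and 155 (0.291, 0.199 to 0.416). At Bach2 they were chr4:32353351-32353550 with 29 and 132 reads (0.254, 0.164 to 0.382) and chr4:32531751-32532150 with 23 and 114 (0.233, 0.142 to 0.368). Their STAT3 counts, 56 to 155, lay above the median STAT3 count of their window (53 reads at Bcl6, 34.5 at Prdm1 and 98 at Bach2) and below the highest. The region chr4:32422601-32423050, with the third-highest STAT3 count at Bach2, had 199 STAT5 and 440 STAT3 reads, a ratio of 0.523 (0.440 to 0.620), and was not called. Each of the 2 Bcl6 and 2 Bach2 sites was a region of STAT3 only, and the Prdm1 site was called with both antibodies. When the libraries were scaled by 10 kb bins without a region, 1 of the 5 was still called.

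**Figure D3:**
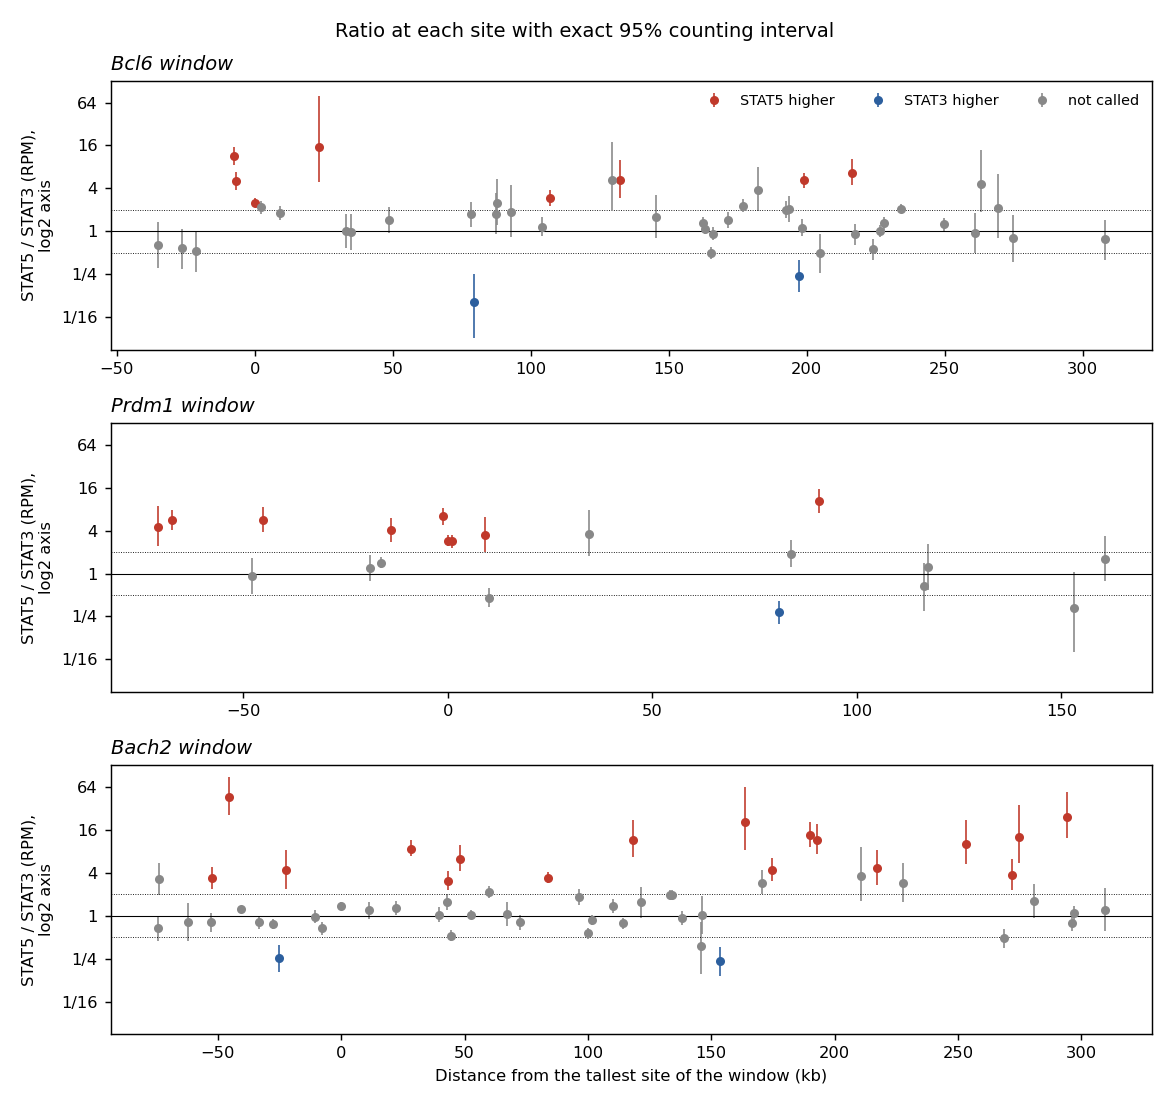
Ratio of RPM, STAT5 over STAT3, at each of the 124 sites (log2 axis) by distance in kb from the tallest site of its window, with exact 95% counting intervals. Red sites were higher with STAT5 (34), blue with STAT3 (5) and grey were not called (85); dotted lines mark 2-fold either way.

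Summed over all sites of a window, Prdm1 had the largest balance toward STAT5. Its 20 sites held 2665 STAT5 and 1319 STAT3 reads, a ratio of 2.34 (2.19 to 2.50). The Bcl6 sites held 6174 and 4258 reads, a ratio of 1.68 (1.61 to 1.75), and the Bach2 sites 9869 and 7713, a ratio of 1.48 (1.44 to 1.52). Over all sites of the genome the summed ratio was 1.62. The median ratio of single sites was 2.35 at Prdm1 (quartiles 1.14 and 4.17), 1.45 at Bcl6 (0.943 and 2.40) and 1.38 at Bach2 (0.826 and 3.62), against 1.24 (0.729 and 3.76) over the genome. The quartile ranges of the 3 windows overlap. The order depends on the regions: with a minimum of 8-fold the summed ratio was 1.86 at Prdm1, 2.24 at Bcl6 and 1.54 at Bach2.

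Within each window the libraries partly ranked the same sites high. Of the 5 sites with most STAT5 reads and the 5 with most STAT3 reads, 3 were the same at Bcl6, 3 at Prdm1 and 2 at Bach2. Spearman's rho of STAT5 and STAT3 reads across sites was 0.714 at Bcl6 (47 sites), 0.703 at Prdm1 (20) and 0.537 at Bach2 (57), against 0.479 over all sites. These values describe sites of the same 2 libraries, which are not independent replicates, and every site had to be a region of STAT5 or of STAT3. Ratios spanned 0.103 to 15.4 at Bcl6, 0.291 to 10.2 at Prdm1 and 0.233 to 45.5 at Bach2. STAT5 was the higher library, at any ratio above 1, at 33 of 47 Bcl6, 15 of 20 Prdm1 and 39 of 57 Bach2 sites, against 59.3% of all sites genome-wide.

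**Figure D4:**
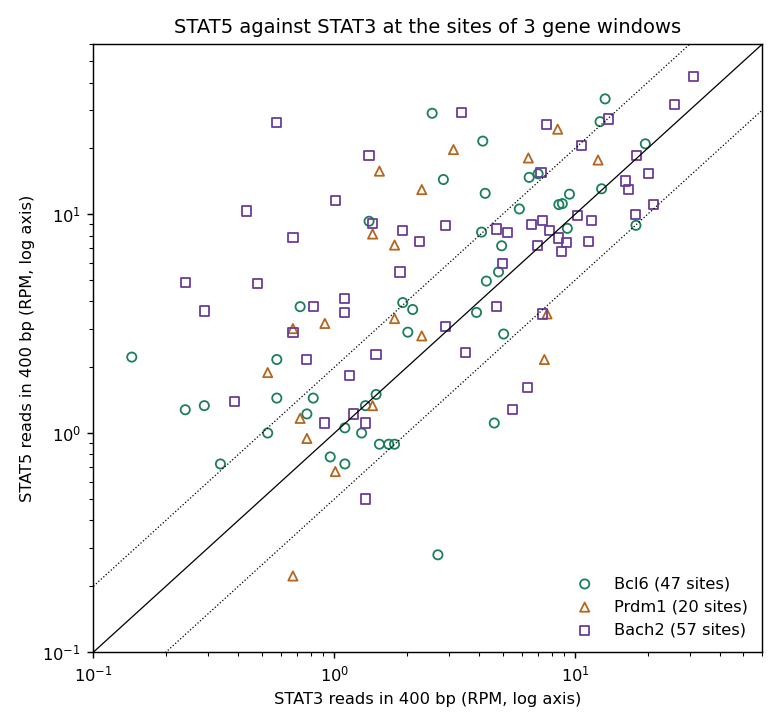
STAT5 (y axis) against STAT3 (x axis) reads in 400 bp around each site, in RPM on log axes, for 47 Bcl6, 20 Prdm1 and 57 Bach2 sites. The solid line marks equal RPM and the dotted lines 2-fold; sites above the upper line outnumber those below the lower line in each window.

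Where both libraries had 50 or more reads, the median positions of their reads in 400 bp around the site's centre were compared. The median positions differed by a median of 16.3 bp at 22 Bcl6 sites, 6.00 bp at 5 Prdm1 sites and 17.8 bp at 30 Bach2 sites, and by 25 bp or less at 15, 4 and 19 of them. The largest offsets at Bcl6 were 82 bp, at the site centred on 24213001, and 71 bp, at chr16:24223101-24223650. Both medians were taken in the same 400 bp around 1 centre, which limits how large an offset can be. A small offset therefore cannot show that both libraries were centred at the same place. The share of all sites with 25 bp or less was not counted. The 5′ ends on the minus strand lay a median of 105 bp beyond those on the plus strand at the STAT5 sites of Bcl6 and Prdm1 and 112 bp at those of Bach2, and 102, 98.5 and 107 bp at the STAT3 sites. These distances were taken from reads whose ends, moved by 50 bp, fell in the same 400 bp. Reads spread evenly there would give a similar value. The distances therefore cannot show whether the spread was alike in the 3 windows. Sites lay close together, with a median distance to the nearest site of 2500 bp at Bcl6, 2800 bp at Prdm1 and 3300 bp at Bach2, and none nearer than 500 bp.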

How the data were processed

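Reads were deposited by the authors as lists of aligned 25 nt reads, with 1 line per read, start and end counted from 1 and at most 1 read per position and strand. The match descriptor and the score column, 0 throughout, were not used. The submitters' processing notes name mm9; the aligner and filters were not given in the sources used here. Per the labels' protocols, libraries had 18 PCR cycles and a gel cut near 250 bp, after fixation in 1% formaldehyde.

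Python 3.11.15 was used with matplotlib 3.10.9, pandas 2.3.3, scipy 1.17.1 and numpy 2.4.6. Read 5′ ends were moved 50 bp in the 3′ direction and counted in 200 bp windows with a step of 50 bp. Windows were called within a library at 5 or more reads, 4-fold or more over the highest of 3 means (10 kb, 5 kb and genome-wide), and a 1-sided Poisson p of 1e-05 or less after Benjamini-Hochberg adjustment over all windows with a read. Called windows within 100 bp were joined, and 185 STAT5 and 106 STAT3 regions with over 80% of summit reads on 1 strand were dropped. Regions sharing at least 1 bp were merged, and a site's centre is its summit with the highest RPM. Summits are local maxima of at least 5 RPM and a prominence of at least 2 RPM. Ratio intervals are exact conditional (Clopper-Pearson). The caller and the intervals were tested on simulated reads, where the intervals held the true ratio less often than their level at tall sites, because reads that share a position are lost.

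The 6 tallest sites of each window are named, and up to 6 called sites by the interval bound farthest from 1; others were named after their values were seen. Members, windows and tests were chosen with earlier results of these data known. The planned list of network genes was not used, since no mm9 annotation was given. RefSeq names and promoters are from GRCm38.p6, where all 3 genes matched by symbol. Alternatives changed the thresholds, shift, depth, scaling, counting width and ratio limit.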

Additional observations from a re-analysis of the deposited data

How the results depend on the processing

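The alternatives were planned, 1 choice at a time. Of 248 recalculations 183 stayed within their limit (1.5 times for a count, the main interval for a ratio) and 65 moved. A change of direction was looked for only in ratios of single sites called in the main setting, and 0 were found. The intervals of these sites lay wholly beyond 2-fold, which the alternatives run at single sites could hardly turn round. That outcome was thus largely fixed in advance and does not measure how firm the direction is. Summed ratios stayed above 1 in all recalculations, from 1.63 to 2.32 at Bcl6, 1.86 to 3.23 at Prdm1 and 1.37 to 2.05 at Bach2. A minimum fold of 8 left 15 STAT5 and 6 STAT3 regions at Bcl6, 6 and 4 at Prdm1, and 19 and 9 at Bach2; sites higher with STAT5 then numbered 5, 3 and 8, sites higher with STAT3 0 at Bcl6 and 1 at Bach2, and the summed ratios were 2.24, 1.86 and 1.54. The genome-wide mean alone gave 58 STAT5 and 59 STAT3 regions at Bcl6, 28 and 25 at Prdm1, and 135 and 132 at Bach2, with summed ratios of 1.93 at Prdm1 and 1.37 at Bach2. Fewer or more regions follow from the threshold itself. Scaling by 10 kb bins without a region divides every ratio by 0.723: the summed ratios were then 2.32 at Bcl6, 3.23 at Prdm1 and 2.05 at Bach2, those at the tallest sites 3.50, 4.0 and 1.90, Bcl6 sites higher with STAT5 15, and sites higher with STAT3 1, 0 and 0. Correcting for positions already taken gave summed ratios of 1.88, 2.63 and 1.62 and tallest-site ratios of 3.84, 3.72 and 2.24. With reads counted in 200 bp the tallest Bcl6 site had a ratio of 2.09, and its interval of 1.76 to 2.49 no longer lay beyond 2-fold. With the interval beyond 1.5-fold, 15 Bcl6 sites were higher with STAT5, and 2 Prdm1 and 4 Bach2 sites with STAT3. Moving 5′ ends by 75 bp left 1 Bach2 site higher with STAT3. Of 104 recalculations at the other 26 named sites, 22 moved beyond the interval. Beyond what each rule fixes, the cause was not tested. No paired analysis was possible because there was 1 library per antibody, and counting intervals do not cover differences between cultures or precipitations.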
